A study of Mus musculus with 6 samples.

Results

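The 239 genes described here are the expressed members of the mouse Zfp gene class in peritoneal macrophages, the zinc-finger genes whose symbol is Zfp followed by a number. They were chosen by symbol and by level, as protein-coding rows of the gene table with a mean of at least 5 CPM (counts scaled to the library total) over 6 libraries. Of 394 protein-coding Zfp genes among the 48709 genes of the table, 239 met this rule, or 60.7%. Of the 155 that did not, 18 had no count in any library, 61 had a mean above 0 and under 1 CPM, and 76 had a mean of 1 to under 5 CPM. The members were thus selected on the measured mean CPM, in which both genotypes count alike. Zfp821 (5.08 CPM), Zfp7 (5.10 CPM) and Zfp28 (5.18 CPM) were just inside the minimum, and Zfp964 (4.96 CPM), Zfp273 (4.84 CPM) and Zfp41 (4.83 CPM) were just outside it.

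The cells were F4/80+ CD11b+ macrophages, sorted by flow cytometry from peritoneal lavage of untreated C57BL/6 mice aged 6 to 8 weeks. There were 3 Zeb1 (+/-) libraries, from mice heterozygous for Zeb1, and 3 Wild-type libraries, each made from a pool of 2 mice. Poly(A) RNA was sequenced, and the study asked how gene expression differs between the genotypes. Pooling means that the spread between libraries is not the spread between single mice.

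Zfp is a naming class, not a single family. Most of its proteins carry arrays of C2H2 zinc fingers, in which a pair of cysteines and a pair of histidines hold a zinc ion and the finger reads a few bases of DNA. Many C2H2 proteins also carry a KRAB domain, which recruits the corepressor Trim28 and with it histone methylation and silencing of retroelements and imprinted genes. KRAB genes are known for tandem duplication and rapid turnover between species. A few Zfp genes encode another fold altogether: Zfp36 (tristetraprolin), Zfp36l1 and Zfp36l2 have CCCH fingers, bind AU-rich elements of mRNA and bring in the CCR4-NOT deadenylase, which limits cytokine production by macrophages. Zeb1 itself is a C2H2 and homeodomain repressor of E-box sites outside the Zfp naming class.

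The coding DNA of the tandem CCCH fingers is shown for the 3 members with that fold, because they had the highest levels of all members and 1 of them led the genotype comparison. Each stretch is the coding strand of GENCODE transcripts on GRCm38, minus strand of the chromosome, with the codons of the zinc-binding cysteines and histidines in capitals. Zfp36 lies at chr7:28378044-28378235, Zfp36l1 at chr12:80110075-80110266 and Zfp36l2 at chr17:84186554-84186745, each within 1 coding exon.
Zfp36: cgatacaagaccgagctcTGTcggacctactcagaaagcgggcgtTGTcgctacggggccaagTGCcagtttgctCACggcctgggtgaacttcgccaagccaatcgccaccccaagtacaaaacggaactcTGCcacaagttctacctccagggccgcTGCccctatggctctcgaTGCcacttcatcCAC
Zfp36l1: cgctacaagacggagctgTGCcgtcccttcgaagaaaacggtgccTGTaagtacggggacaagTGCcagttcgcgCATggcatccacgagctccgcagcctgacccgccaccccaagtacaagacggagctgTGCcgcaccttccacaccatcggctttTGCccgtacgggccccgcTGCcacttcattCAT
Zfp36l2: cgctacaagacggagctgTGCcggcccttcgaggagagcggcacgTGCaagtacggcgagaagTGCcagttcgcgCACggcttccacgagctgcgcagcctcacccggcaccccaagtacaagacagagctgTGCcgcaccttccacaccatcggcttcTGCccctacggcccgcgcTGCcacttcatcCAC
Over these 192 bases Zfp36l1 and Zfp36l2 were the same at 170 (88.5%), Zfp36 and Zfp36l2 at 135 (70.3%), and Zfp36 and Zfp36l1 at 133 (69.3%). Of the 64 encoded residues, 60 were the same in Zfp36l1 and Zfp36l2, 46 in Zfp36 and Zfp36l2, and 45 in Zfp36 and Zfp36l1. The counts of the 3 genes can be told apart: none of the 50-base stretches of Zfp36l2 transcripts occurred in transcripts of another gene, and 1.76% and 3.13% did for Zfp36 and Zfp36l1.

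A single C2H2 finger with its linker to the next finger is shown from Zfp971, the KRAB member with the highest level, on the plus strand at chr2:178033006-178033089, again with the cysteine and histidine codons in capitals.
Zfp971: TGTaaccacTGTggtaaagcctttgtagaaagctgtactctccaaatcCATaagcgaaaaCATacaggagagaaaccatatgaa
Arrays of this repeat filled most members. A C2H2 finger was found in 232 members, with a median of 10 per protein over all 239 and a highest number of 36 in Zfp142, followed by 33 in Zfp619. The 7 members with no match to the C2H2 pattern were the 3 CCCH genes, Zfp703, Zfp839, Zfp330 and Zfp935. A KRAB domain was found by a profile search in 134 members, which had a median of 12 fingers, against 7 in the 105 members without one.

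Before the results on genotype, some facts of the libraries bear on every value. Totals were 17859872 to 42165006 counts in Zeb1 (+/-) libraries and 18574049 to 33358835 in Wild-type libraries, and every member had at least 63 counts in every library. Zeb1 mRNA was at 3.85, 3.45 and 3.62 CPM in Zeb1 (+/-) replicates 1, 2 and 3, against 5.44, 7.56 and 7.22 CPM in Wild-type replicates 1, 2 and 3. Its log2 fold change was −0.89 (edgeR adjusted p = 0.0522), so Zeb1 itself did not pass the adjusted p of 0.05 used below. Small structural RNAs summed to 43.6 to 45.5 CPM in the 3 Zeb1 (+/-) libraries, while Wild-type replicate 1 had 4.14, replicate 2 had 8.69 and replicate 3 had 42.2 CPM, so Wild-type replicates 1 and 2 stood apart. Of the macrophage markers, Adgre1 (F4/80) was at 2602 to 2645 CPM in Zeb1 (+/-) and 2158 to 2229 CPM in Wild-type, and Itgam (CD11b) at 4686 to 5359.8 CPM in Zeb1 (+/-) and 4703 to 5022 CPM in Wild-type. Over the 10 markers the median log2 fold change was 0.03 and 0 passed the edgeR threshold. An unadjusted p under 0.05 was found in 3, all higher, against 14.6% of all tested genes. The genotypes did not overlap in 4, against 19.9% of all tested genes. Of these 4, Adgre1, Gata6 (0.31) and Icam2 (0.30) were higher and Csf1r (−0.15) lower in Zeb1 (+/-). B cell marker sums differed with genotype: 15 genes summed to 92.2 to 124 CPM in Zeb1 (+/-) and to 150.1 to 305 CPM in Wild-type. None of the 15 was at 0 in all libraries. Of 14 tested, with a median log2 fold change of −0.95, 0 passed the edgeR threshold. An unadjusted p under 0.05 was found in 13 of the 14, all lower, and the genotypes did not overlap in 13. Markers of T and NK cells summed to at most 2.01 CPM in Zeb1 (+/-) and 3.21 CPM in Wild-type, those of neutrophils, mast cells and eosinophils to at most 4.44 CPM in Zeb1 (+/-) and 4.14 CPM in Wild-type, and those of mesothelium and fibroblasts to at most 0.590 CPM in Zeb1 (+/-) and 1.56 CPM in Wild-type. In sorted bulk samples, fewer cells of a type and less RNA per cell cannot be told apart.

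The levels of the members were spread over a wide range with 3 genes far above the rest. Levels are compared between genes as CPM per kilobase (kb) of exon, averaged over 6 libraries. Zfp36 was at 211, Zfp36l2 at 128 and Zfp36l1 at 75.3 CPM per kb, and these 3 ranges over the libraries did not overlap (166 to 250.5, 105 to 153 and 61.8 to 85.4). The next, Zfp706 (29.1), Zfp710 (27.3) and Zfp971 (25.8 CPM per kb), overlapped one another over the libraries. Zfp984 (21.6), the RNA-binding protein Zfp106 (20.5), Zfp217 (20.2 CPM per kb) and Zfp395 (19.1 to 20.8 CPM per kb over the libraries) followed and likewise overlapped. The human counterpart of Zfp217 acts with the CoREST and CtBP corepressors. At the other end Zfp846 was at 0.477 CPM per kb, and 164 of 239 members lay between 1 and 5. The 3 CCCH genes together made up 16.8%, 18.7% and 20.8% of the summed CPM of all members in Zeb1 (+/-) replicates 1, 2 and 3, and 22.1%, 21.2% and 19.3% in Wild-type replicates 1, 2 and 3.

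**Figure D1:**
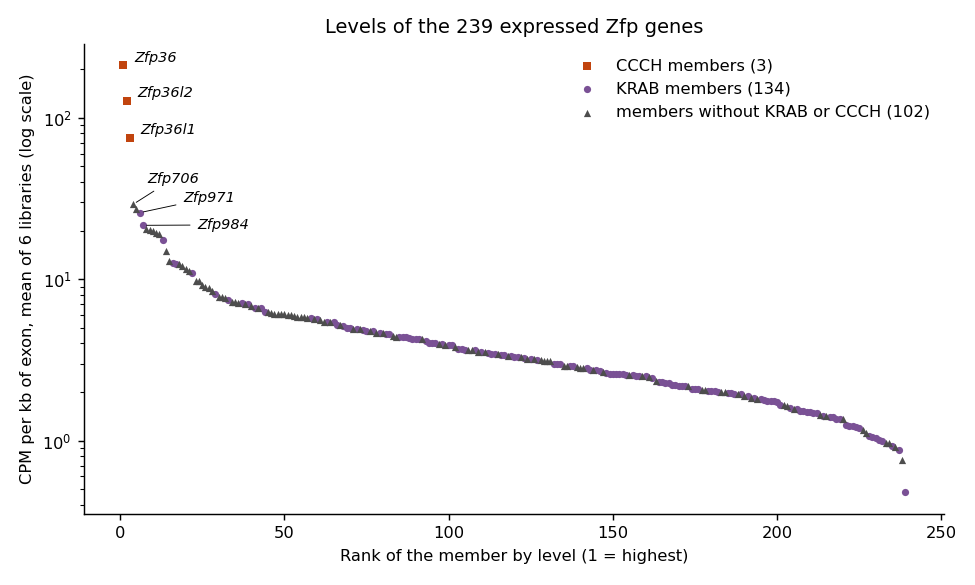
Level of each of the 239 members (CPM per kb of exon, mean of 6 libraries, log scale) against its rank, with squares for CCCH members, circles for KRAB members and triangles for the rest. Zfp36, Zfp36l2 and Zfp36l1, at 211, 128 and 75.3 CPM per kb, stand above the next member at 29.1, and KRAB members fill most of the lower ranks.

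KRAB members had the lower median level. It was 2.67 CPM per kb (range 0.477 to 25.8), against 4.67 CPM per kb (0.764 to 211) in members without KRAB. Of the KRAB Zfp genes 134 of 239 (56.1%) had at least 5 CPM, against 105 of 154 without KRAB (68.2%), and these shares were not tested against each other. Across all 239 members, Spearman's rho between the number of C2H2 fingers and the level per kb was −0.30. It was −0.20 within KRAB members and −0.25 within the others, and is given as a description, since the points share their libraries and the rule sets a floor on CPM. The 3 KRAB members with the highest levels, Zfp971, Zfp984 and Zfp991 (17.5 CPM per kb), share 51.1%, 54.5% and 82.2% of their 50-base stretches with other annotated genes, so their counts depend on how reads were assigned among copies. Zfp869 (12.7), Zfp110 (12.4) and Zfp263 (10.99 CPM per kb) came next, with 9.35%, 1.26% and 0% shared.

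Shared sequence was mostly a matter of KRAB members: 24 of them, and 2 of the others, had more than 20% of their stretches in other genes. The highest shares were 100% in Zfp935, 90.0% in Zfp966, 86.8% in Zfp993, 84.3% in Zfp433, 82.2% in Zfp991 and 81.3% in Zfp97. The kind of copy involved is shown by the same 2 fingers of Zfp991 and Zfp992, with the bases that differ in capitals (plus strand of GRCm38, chr4:147179227-147179394 and chr4:146466883-146467050).
Zfp991: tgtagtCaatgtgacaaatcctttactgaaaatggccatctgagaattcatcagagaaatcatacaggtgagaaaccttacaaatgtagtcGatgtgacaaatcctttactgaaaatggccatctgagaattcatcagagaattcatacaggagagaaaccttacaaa
Zfp992: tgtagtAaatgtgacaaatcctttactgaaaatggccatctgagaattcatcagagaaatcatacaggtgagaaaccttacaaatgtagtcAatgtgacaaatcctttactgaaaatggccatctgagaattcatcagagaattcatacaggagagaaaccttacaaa
This was the most different pair of fingers in their arrays, with 2 of 168 bases changed. Over the whole coding sequence of 1719 bases, 1711 were the same (99.5%). Zfp991 was at 51.7, 46.4 and 51.0 CPM in Zeb1 (+/-), against 55.3, 52.0 and 50.6 CPM in Wild-type, and Zfp992 at 38.2, 34.9 and 36.3 CPM in Zeb1 (+/-), against 37.1, 38.7 and 35.2 CPM in Wild-type. The split of reads between the 2 copies is uncertain, and the genotypes overlapped for both.

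Members were unevenly spread over the genome. Chromosome 7 held 53 members of its 92 Zfp genes, chromosome 17 held 34 of 46 and chromosome 13 held 23 of 37. Clusters were taken as runs of at least 3 Zfp genes with gaps of at most 100 kb. Of the KRAB members 95 of 134 (70.9%) lay in one, against 17 of 105 others (16.2%). Members and genes under 5 CPM were mixed within them: clusters also held 66 of the 155 Zfp genes under 5 CPM (42.6%), against 112 of the 239 members (46.9%). The cluster with the most genes, on chromosome 13 from 67038596 to 67827002 of GRCm38, had 15 members of 23 Zfp genes, all 23 with KRAB. A cluster of 5 Zfp genes on chromosome 11 from 50811086 to 50931633 had 0 members.

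**Figure D2:**
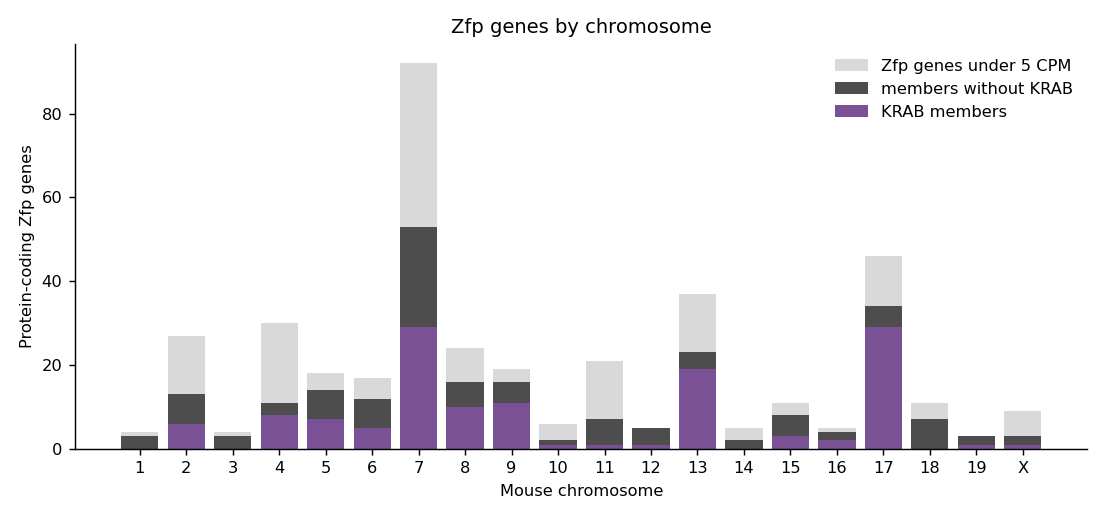
Number of protein-coding Zfp genes on each mouse chromosome, split into KRAB members, members without KRAB and Zfp genes under 5 CPM. Chromosomes 7, 17 and 13, with 53, 34 and 23 members, have the tallest stacks.

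The genotype comparison asked whether any member differed between Zeb1 (+/-) and Wild-type macrophages. By edgeR's quasi-likelihood test with Benjamini-Hochberg adjustment over 12940 genes, 0 of 239 members passed an adjusted p of 0.05, while 0.587% of all tested genes did. At an unadjusted p under 0.05 there were 17 members (7.11%), 4 higher and 13 lower in Zeb1 (+/-), against 14.6% of all tested genes (6.3% higher, 8.26% lower). The 3 libraries of the genotypes did not overlap in 36 members (15.1%), 15 higher and 21 lower in Zeb1 (+/-), against 19.9% of all tested genes (9.6% higher, 10.3% lower). In each of these counts the share among the members was below that among all genes, a difference that was not tested. DESeq2 and edgeR without a low-count filter each called 3 members, all lower in Zeb1 (+/-): Zfp36l2, Zfp703 and Zfp385a. They called 2.03% and 1.49% of all genes they adjusted as lower.

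The size of the differences was bounded. Log2 fold changes, Zeb1 (+/-) over Wild-type throughout, ran from −0.43 to 0.36, with a median of −0.03 over the members and 0.00 over all tested genes. They were above 0 for 90 members and below 0 for 149, while 50.1% of all tested genes were below 0. The 95% confidence interval stayed within a 1.5-fold change for 230 members and within a 2-fold change for 239. The median standard error was 0.098, against 0.101 for all tested genes. The summed CPM of the members was 6861, 6688 and 7098 in Zeb1 (+/-) and 7419, 7462 and 7065 in Wild-type, with Wild-type replicate 3 inside the Zeb1 (+/-) range. On raw library totals, without TMM scaling, the sums were 6884, 6718 and 6929 CPM in Zeb1 (+/-) and 7406, 7491 and 7166 CPM in Wild-type, without overlap. Without the 3 CCCH genes the TMM-scaled sums averaged 5591 ± 138 CPM in Zeb1 (+/-) and 5786 ± 91.6 CPM in Wild-type (SD, n = 3 each). They overlapped, with Zeb1 (+/-) replicate 1 (5709 CPM) above Wild-type replicate 3 (5698 CPM).

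**Figure D3:**
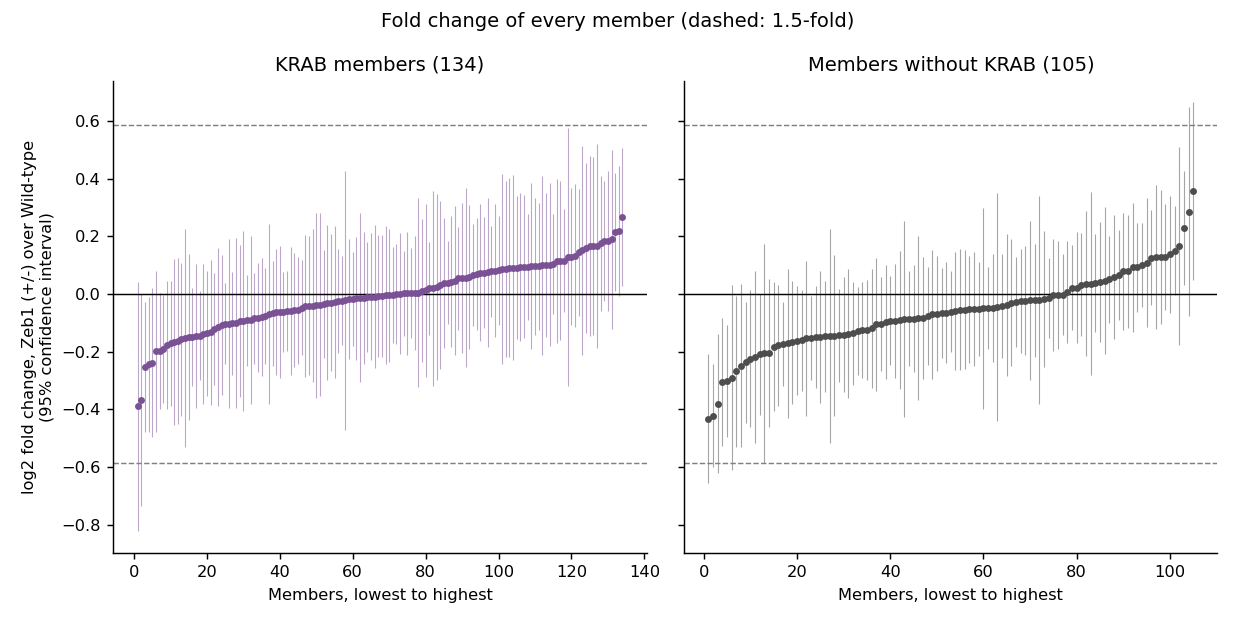
Log2 fold change (Zeb1 (+/-) over Wild-type) of every member with its 95% confidence interval, in rising order, for 134 KRAB members (left) and 105 members without KRAB (right); dashed lines mark a 1.5-fold change. Intervals of 132 KRAB members and 98 others lie within the dashed lines.

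The CCCH genes did not share a direction: Zfp36l2 and Zfp36 had negative log2 fold changes and Zfp36l1 a positive one, which turned to −0.19 with the B cell marker mean as a covariate. Zfp36l2 had the smallest p of all members. It was at 369.7, 369 and 418 CPM in Zeb1 (+/-) replicates 1, 2 and 3, against 533, 541 and 477 CPM in Wild-type replicates 1, 2 and 3. All 3 Zeb1 (+/-) values lay below all Wild-type values, with Wild-type replicate 3 the closest. Zeb1 (+/-) libraries averaged 386 ± 27.96 CPM and Wild-type libraries 517 ± 34.7 CPM (SD, n = 3 each). The log2 fold change was −0.42 ± 0.08 (SE; 95% confidence interval −0.60 to −0.24; edgeR adjusted p = 0.0590). DESeq2 gave an adjusted p of 0.000219, and edgeR without the low-count filter gave 0.00423. With a library left out, the edgeR adjusted p was 0.0452 without Zeb1 (+/-) replicate 3 and 0.0512 to 0.285 without any other library. With the replicate number as a block it was 0.282. When a term for the structural RNA class was added, which leaves only Wild-type replicate 3 as the comparator, the log2 fold change was −0.31. With the mean of the B cell markers as a covariate it was −0.61 with an edgeR adjusted p of 0.107. The B cell sums did not overlap between genotypes, and in Wild-type replicates 1, 2 and 3 they were 165, 150.1 and 305 CPM. In every fit with this covariate, here and elsewhere, genotype and B cell content therefore cannot be cleanly told apart. The gene lies on chromosome 17 from 84183931 to 84187947, minus strand.

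Zfp36, the best studied of the 3 as a brake on Tnf mRNA, was at 578, 634 and 801 CPM in Zeb1 (+/-), against 869, 816 and 705 CPM in Wild-type. The genotypes overlapped, with Zeb1 (+/-) replicate 3 above Wild-type replicate 3, and the log2 fold change of −0.25 ± 0.12 had an edgeR adjusted p of 0.392. It was −0.07 with the structural RNA term and −0.58 with the B cell covariate, and lay between −0.39 and −0.15 with a library left out (Zeb1 (+/-) replicate 3 and replicate 1). Zfp36l1 was at 205, 245 and 255 CPM in Zeb1 (+/-), against 237, 224 and 185 CPM in Wild-type, with a log2 fold change of 0.13 ± 0.11 and overlap. Zfp36l1 shares 55.9% of its exon bases with exons of an antisense gene, and the strand setting of the counting is not given, so part of its count could come from there. Together the 3 genes summed to 1152, 1248 and 1474 CPM in Zeb1 (+/-) and to 1639, 1581 and 1367 CPM in Wild-type. Zfp36l3, the other CCCH gene of the family in mouse, was no member, with at most 0.390 CPM in any library.

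**Figure D4:**
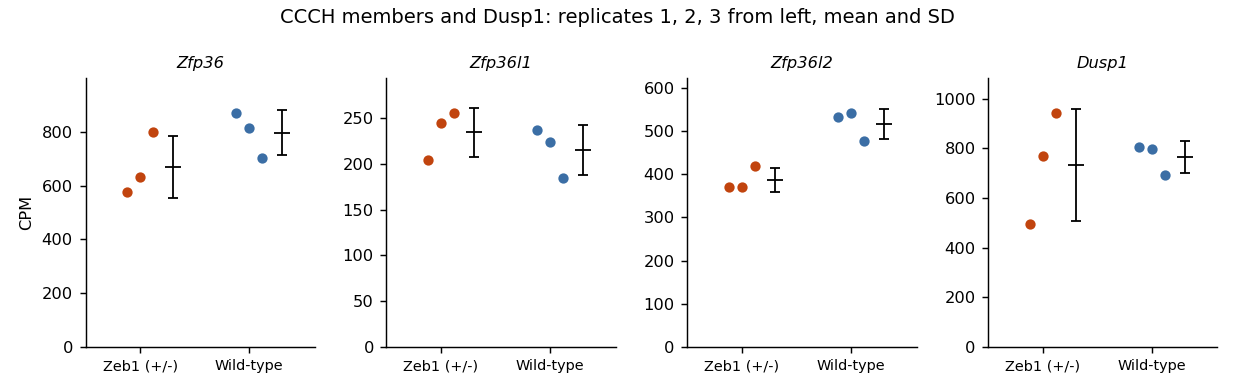
CPM of Zfp36, Zfp36l1, Zfp36l2 and Dusp1 in each library, Zeb1 (+/-) left and Wild-type right, replicates 1 to 3 from left, with mean and SD. Zfp36l2 separates the genotypes (369 to 418 CPM in Zeb1 (+/-), 477 to 541 CPM in Wild-type). The other 3 overlap, and these 3 share their lowest and highest Zeb1 (+/-) libraries.

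Dusp1 encodes a phosphatase that ends p38 signalling, the pathway that controls tristetraprolin. Dusp1 was at 493, 769 and 941 CPM in Zeb1 (+/-), against 804, 797 and 691 CPM in Wild-type. Replicate 1 was thus lowest and replicate 3 highest among Zeb1 (+/-) libraries for Dusp1, as for Zfp36 and Zfp36l1. That order was not particular to these genes, since Mapkapk2, Tnf, Il1b and Zfp385a, given below, had it too. The partners of the CCCH proteins in mRNA decay are the CCR4-NOT subunits, decapping factors and p38 pathway genes, Dusp1 among them. Of 22 tested by edgeR, 0 passed the threshold and 0 had an unadjusted p under 0.05, where 14.6% of all tested genes had such a p. The genotypes did not overlap in 4 of the 22, against 19.9% of all tested genes. These 22 went both ways, with a median log2 fold change of −0.04. The scaffold Cnot1 was at 172, 162 and 173 CPM in Zeb1 (+/-) and 174, 181 and 165 CPM in Wild-type. Mapkapk2, the kinase that inactivates tristetraprolin, had the smallest p, with 223, 249 and 255 CPM in Zeb1 (+/-), against 257, 275 and 277 CPM in Wild-type, and a log2 fold change of −0.15 ± 0.07 (edgeR adjusted p = 0.368).

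AU-rich mRNAs bound by tristetraprolin in mouse macrophages varied widely between libraries. Of 11 tested, 0 passed the threshold and 9 were below 0, with a median log2 fold change of −0.34. An unadjusted p under 0.05 was found in 1, against 14.6% of all tested genes. Il1b was at 1.17, 1.46 and 1.61 CPM in Zeb1 (+/-), against 2.76, 1.85 and 1.75 CPM in Wild-type, a log2 fold change of −0.58 ± 0.24 (edgeR adjusted p = 0.325) on non-overlapping values. Tnf was at 2.40, 2.93 and 3.32 CPM in Zeb1 (+/-), against 4.95, 3.80 and 3.13 CPM in Wild-type, with overlap. The chemokine gene Cxcl2 was at 82.5, 139.9 and 341 CPM in Zeb1 (+/-), against 332, 198 and 231 CPM in Wild-type, again lowest in Zeb1 (+/-) replicate 1 and highest in replicate 3.

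After Zfp36l2, the members with the smallest p were mostly lower in Zeb1 (+/-), and none of them passed the threshold in edgeR with the low-count filter. Zfp703 encodes a transcriptional corepressor of the NET family. It was at 38.1, 32.4 and 41.2 CPM in Zeb1 (+/-), against 47.0, 54.6 and 48.9 CPM in Wild-type, without overlap. Its log2 fold change was −0.43 ± 0.10 (edgeR adjusted p = 0.102; DESeq2 adjusted p = 0.00980), and the estimate kept its direction with each library left out (−0.51 to −0.33). Zfp385a encodes an RNA-binding protein first described in blood cells. It was at 37.7, 40.1 and 48.7 CPM in Zeb1 (+/-), against 52.4, 60.9 and 51.7 CPM in Wild-type, again without overlap. Its log2 fold change was −0.38 ± 0.11 (edgeR adjusted p = 0.159; DESeq2 adjusted p = 0.0456). With the structural RNA term the log2 fold changes of Zfp703 and Zfp385a were −0.40 and −0.29, and with the B cell covariate they were −0.54 and −0.60.

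Zfp608 was at 25.1, 23.5 and 23.1 CPM in Zeb1 (+/-), against 26.1, 31.0 and 31.2 CPM in Wild-type, a log2 fold change of −0.30 ± 0.09. Zfp608 lies on chromosome 18, as does Zeb1. Zfp865 was at 34.9, 31.4 and 30.4 CPM in Zeb1 (+/-), against 35.3, 45.0 and 38.9 CPM in Wild-type, a log2 fold change of −0.31 ± 0.10. For Zfp865, Zeb1 (+/-) replicate 1 nearly met Wild-type replicate 1, and 28.4% of its exon bases lie in exons of other genes. Zfp644, whose human counterpart binds the histone methyltransferases EHMT1 and EHMT2, was at 27.2, 25.9 and 25.7 CPM in Zeb1 (+/-), against 28.9, 29.5 and 30.3 CPM in Wild-type. Its difference was small but its spread was too, with a log2 fold change of −0.17 ± 0.06 (edgeR adjusted p = 0.275). Zfp319 was at 24.1, 21.6 and 25.4 CPM in Zeb1 (+/-), against 26.8, 30.8 and 25.7 CPM in Wild-type, a log2 fold change of −0.24 ± 0.09 with the closest pair of libraries nearly equal. The log2 fold change of Zfp319 was −0.12 with the structural RNA term and −0.41 with the B cell covariate, and with that covariate it was −0.19 for Zfp608 and −0.11 for Zfp644.

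The 4 members higher in Zeb1 (+/-) at an unadjusted p under 0.05 differed in kind. Zfp593 encodes a factor for the maturation of the large ribosomal subunit, known best from its yeast counterpart. It was at 6.92, 8.45 and 8.16 CPM in Zeb1 (+/-), against 5.68, 7.06 and 5.73 CPM in Wild-type, with Zeb1 (+/-) replicate 1 below Wild-type replicate 2. Its log2 fold change of 0.36 ± 0.14 was the highest of all members (edgeR adjusted p = 0.285), but 77.9% of its exon bases lie opposite exons of an antisense gene. Zfp770 was at 15.1, 13.2 and 14.4 CPM in Zeb1 (+/-), against 11.6, 12.5 and 12.3 CPM in Wild-type, a log2 fold change of 0.23 ± 0.09. Zfp931, a KRAB member on chromosome 2, was at 9.15, 9.11 and 8.40 CPM in Zeb1 (+/-), against 7.93, 7.13 and 7.01 CPM in Wild-type, a log2 fold change of 0.27 ± 0.11. Zfp874b, a KRAB member of the chromosome 13 cluster, was at 18.2, 16.4 and 15.8 CPM in Zeb1 (+/-), against 13.3, 14.8 and 15.2 CPM in Wild-type, a log2 fold change of 0.21 ± 0.09. The genotypes did not overlap in these last 3, and Zfp931 and Zfp874b share 23.3% and 13.5% of their stretches with other genes. With the B cell covariate the log2 fold change was 0.18 for Zfp593 and 0.34 for Zfp874b, and with the structural RNA term it was 0.14 for Zfp874b.

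**Figure D5:**
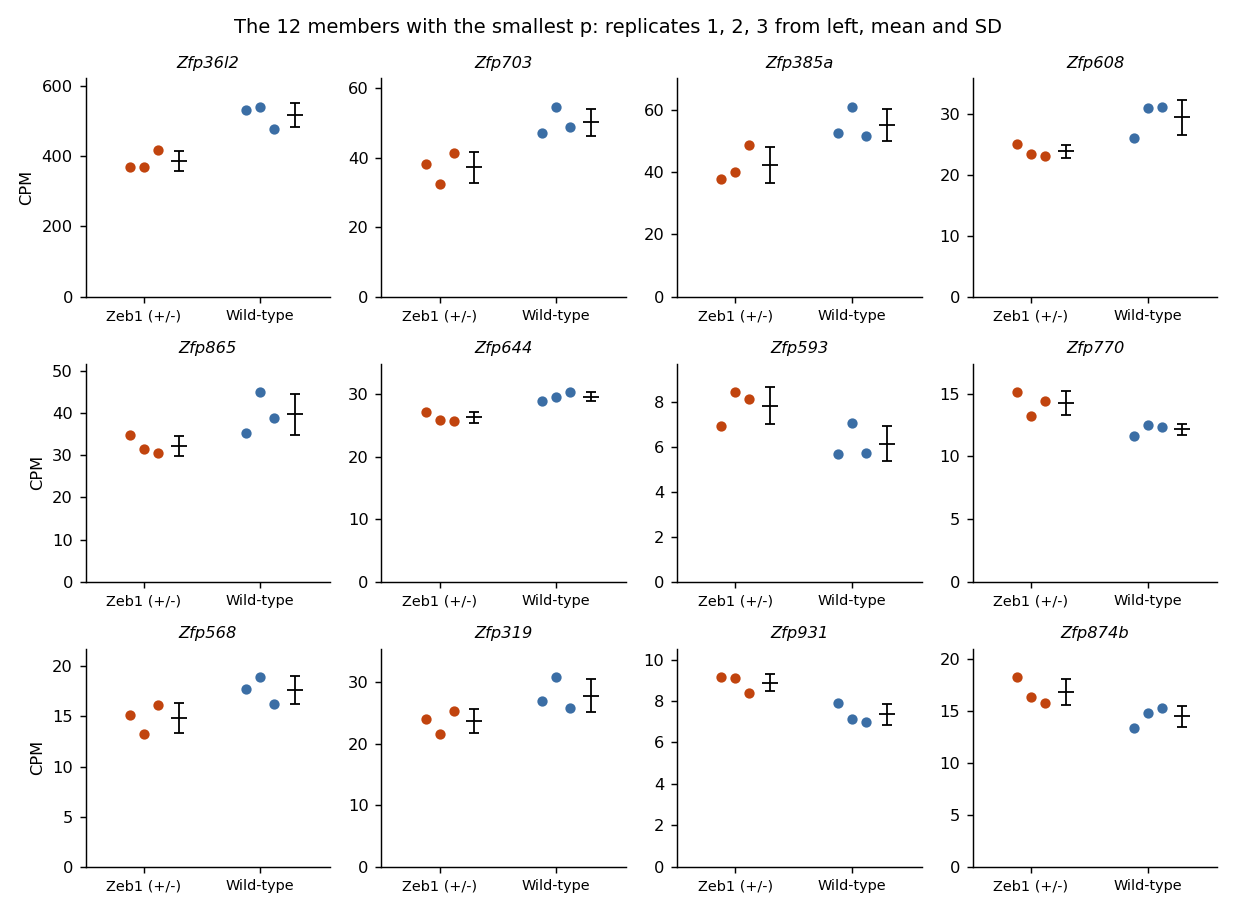
CPM in each library of the 12 members with the smallest unadjusted p, Zeb1 (+/-) left and Wild-type right, replicates 1 to 3 from left, with mean and SD. The genotypes do not overlap in 11 panels, and Zfp593 is the exception. The share was 19.9% among all tested genes, but choosing panels by small p favours separation. None of the 12 passed the adjusted threshold in edgeR with the low-count filter and all 6 libraries.

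KRAB members lay close to 0 as a class. Their median log2 fold change was −0.01, with 62 above and 72 below 0, and 5 of 134 had an unadjusted p under 0.05 (2 higher, 3 lower). In the 105 members without KRAB the median was −0.06, with 28 above and 77 below 0, and 12 had such a p (2 higher, 10 lower). These are 3.73% of the KRAB members and 11.4% of the others, against 14.6% of all tested genes. Both classes had 0 members past the threshold in edgeR with the low-count filter, and the difference between the classes was not tested. The summed CPM of the KRAB members was 2133, 1999 and 2017 in Zeb1 (+/-) and 2101, 2066 and 2053 in Wild-type. The 102 members with neither KRAB nor CCCH summed to 3575, 3441 and 3607 CPM in Zeb1 (+/-) and 3679, 3816 and 3645 CPM in Wild-type, without overlap. Leaving out the KRAB members with more than 20% shared stretches left 110 with a median of −0.01.

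Zfp568, which in mouse embryos represses a placental transcript of Igf2, had the smallest p of the KRAB members. It was at 15.1, 13.3 and 16.16 CPM in Zeb1 (+/-), against 17.7, 18.9 and 16.19 CPM in Wild-type, a log2 fold change of −0.25 ± 0.10 (edgeR adjusted p = 0.296). It was −0.13 with the structural RNA term and −0.44 with the B cell covariate. Zeb1 (+/-) replicate 3 and Wild-type replicate 3 were almost equal. Of the other members with a known part in silencing of retroelements or imprints, Zfp809, which silences murine leukaemia virus, was at 8.26, 7.30 and 7.15 CPM in Zeb1 (+/-), against 7.57, 7.31 and 7.54 CPM in Wild-type. Zfp445, which maintains imprints, was at 48.0, 37.6 and 37.5 CPM in Zeb1 (+/-), against 41.5, 42.6 and 43.7 CPM in Wild-type. Zfp932, a repressor of endogenous retroviruses, was at 14.4, 16.1 and 13.2 CPM in Zeb1 (+/-), against 13.3, 12.5 and 13.9 CPM in Wild-type. The last 3 overlapped between genotypes. Over the 5 members of this list the median log2 fold change was 0.01. An unadjusted p under 0.05 was found in 1, against 14.6% of all tested genes. Zfp57, the imprint factor of embryonic cells, was no member, with at most 0.319 CPM in any library.

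The machinery that KRAB proteins call on was present in both genotypes. Of 22 tested genes 0 passed the edgeR threshold. An unadjusted p under 0.05 was found in 2, both lower, against 14.6% of all tested genes (8.26% lower). The genotypes did not overlap in 4 of the 22, against 19.9% of all tested genes. These 22 went both ways, with a median log2 fold change of 0.02. Trim28, the corepressor that binds KRAB, was at 98.0, 102 and 109 CPM in Zeb1 (+/-), against 108, 97.1 and 99.6 CPM in Wild-type. Its partner Setdb1, the H3K9 methyltransferase, was at 48.2, 51.5 and 55.6 CPM in Zeb1 (+/-), against 58.3, 54.6 and 59.0 CPM in Wild-type, with overlap. Ehmt2, another H3K9 methyltransferase, had the smallest p, with 142, 150.3 and 154 CPM in Zeb1 (+/-), against 169, 177 and 165 CPM in Wild-type, a log2 fold change of −0.19 ± 0.06 (edgeR adjusted p = 0.224) without overlap.

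Summed levels were also compared cluster by cluster, since neighbouring KRAB genes often arose by duplication. The 15 members of the chromosome 13 cluster summed to 219.6, 216 and 215 CPM in Zeb1 (+/-) and to 217, 215 and 212 CPM in Wild-type, with 6 above and 9 below 0. The 10 members of the chromosome 17 cluster from 21383748 to 22225616 summed to 142, 131 and 127 CPM in Zeb1 (+/-) and 129, 124 and 135 CPM in Wild-type, with 6 above and 4 below 0. In both, the genotypes overlapped. On chromosome 7 from 4915217 to 5053723, 4 members without KRAB (Zfp628, Zfp579, Zfp524 and Zfp865) summed to 65.2, 61.0 and 62.0 CPM in Zeb1 (+/-) and to 67.8, 82.2 and 73.7 CPM in Wild-type, without overlap. All 4 were below 0 (−0.31 to −0.17), 1 with an unadjusted p under 0.05, against 14.6% of all tested genes. That 1 was Zfp865, at 34.9, 31.4 and 30.4 CPM in Zeb1 (+/-) and 35.3, 45.0 and 38.9 CPM in Wild-type. This cluster is named because of these values. Of the exon bases, 51.6% in Zfp524 and 28.4% in Zfp865 lie in exons of other genes, Gm44973 among them for both. The sums of 6 members on chromosome 6 from 47819266 to 48086593 did not overlap either. They were 109.9, 101.4 and 113.276 CPM in Zeb1 (+/-) and 115.8, 115.1 and 113.28 CPM in Wild-type, with 1 above and 5 below 0. In the other clusters summed, the genotypes overlapped.

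The members with a known role outside KRAB silencing were read by lists. Of 33 members that act in chromatin or transcription, 0 passed the threshold in the same fit, 29 were below 0 with a median of −0.09, and 5 had an unadjusted p under 0.05, all lower, where 14.6% of all tested genes had such a p (8.26% lower). Zfp703 had the smallest p of them. Zfp384, a transcription factor fused to other genes in human leukaemias, was at 71.8, 65.4 and 67.9 CPM in Zeb1 (+/-), against 74.1, 79.1 and 74.4 CPM in Wild-type, a log2 fold change of −0.15 ± 0.06. Zfp281, a regulator of pluripotent cells, went the other way, with 41.9, 43.8 and 46.8 CPM in Zeb1 (+/-), against 41.4, 39.0 and 39.1 CPM in Wild-type, and a log2 fold change of 0.15 ± 0.07. Neither passed the adjusted threshold (edgeR adjusted p = 0.327 and 0.352). Of 12 members that act on RNA, ribosomes or the spindle, 0 passed, 6 were below 0 and the median was −0.03. An unadjusted p under 0.05 was found in 2, Zfp385a lower and Zfp593 higher, against the same 14.6% of all tested genes. Zfp598, the ubiquitin ligase that senses collided ribosomes, was at 46.1, 42.1 and 48.6 CPM in Zeb1 (+/-), against 48.9, 47.6 and 50.5 CPM in Wild-type, with overlap. Of 8 members known from blood cells, the CCCH genes among them, 0 passed and 7 were below 0, with a median of −0.20. An unadjusted p under 0.05 was found in 2 of these 8 (Zfp36l2 and Zfp608), against 14.6% of all tested genes.

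Replicates of 1 genotype were close for most members. The median coefficient of variation was 7.22% in Zeb1 (+/-) and 7.30% in Wild-type. The 3 steadiest members in Wild-type were Zfp768, Zfp664 and Zfp280d. Zfp768 was at 12.4, 12.9 and 14.9 CPM in Zeb1 (+/-) and 14.02, 13.9 and 13.96 CPM in Wild-type. The 3 most variable in Wild-type were Zfp324, Zfp444 and Zfp169. Zfp324 was at 9.32, 9.59 and 13.9 CPM in Zeb1 (+/-) and 13.5, 11.4 and 8.28 CPM in Wild-type, so its genotypes overlapped.

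Promoters were read for the hexamer CAGGTG, or CACCTG on the other strand, a form of the E-box that Zeb1 binds. RefSeq promoter sequences (GRCm38.p6, 250 bases before the start site) were matched for 201 of 239 members. The hexamer stood in the first promoter of 23 of these (11.4%), against 14.1% of 9381 genes tested that had a promoter in the table and 17.2% of all 32851 promoters. Among KRAB members it stood in 11 of 119 (9.24%), and among the others in 12 of 82 (14.6%). Of the 12 members with the smallest p, 6 had a promoter in the table, and the hexamer stood in a promoter of 2, Zfp385a and Zfp319. For these 6 members every promoter in the table was read, while the shares above use only the first. Both are on the minus strand, at chr15:103340087-103340336 and chr8:95331812-95332061. They are shown, the hexamer in capitals, because no other promoter of these 6 members had it.
Zfp385a: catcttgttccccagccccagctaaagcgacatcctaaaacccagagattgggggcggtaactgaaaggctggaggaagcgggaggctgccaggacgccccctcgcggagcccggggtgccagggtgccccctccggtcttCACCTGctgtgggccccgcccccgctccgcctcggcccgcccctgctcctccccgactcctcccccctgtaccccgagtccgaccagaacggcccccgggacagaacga
Zfp319: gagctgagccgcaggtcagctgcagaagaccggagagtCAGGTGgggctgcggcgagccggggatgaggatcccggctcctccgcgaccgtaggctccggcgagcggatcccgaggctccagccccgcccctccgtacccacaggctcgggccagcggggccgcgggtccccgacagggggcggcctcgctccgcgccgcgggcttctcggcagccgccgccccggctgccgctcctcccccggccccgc
The hexamer began 109 bases before the start site in Zfp385a and 212 bases before it in Zfp319. It is a match of letters, and binding was not measured. Both genes had lower CPM in all 3 Zeb1 (+/-) libraries, as given above, and neither passed the threshold in edgeR with the low-count filter; Zfp385a passed without that filter and in DESeq2.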

How the data were processed

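Poly(A) RNA of 3 Zeb1 (+/-) and 3 Wild-type pools was sequenced from libraries made with a stranded TruSeq kit, per the labels. The authors deposited 1 table of expected counts per gene, whole numbers throughout. STAR, RSEM, edgeR and GRCm38 are named in the submitters' processing notes; the annotation release and strand setting are not given in the sources used here. Columns were mapped by the sample descriptions, and 0 were unmapped.

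Members were chosen by raw CPM; all other CPM use TMM-scaled totals. Genes passing filterByExpr of edgeR 4.0.16 (R 4.3.3; minimum count 10, total 15) were fitted by the quasi-likelihood method with genotype as the term, and p-values adjusted over 12940 genes. Alternatives were DESeq2 1.42.0, RLE size factors, other low-count filters, the replicate number as a block, a term for low structural RNA (under 20 CPM), the mean B cell marker level as a covariate, and each library left out. 1 CPM stands for 17.9 to 42.2 counts. Confidence intervals cover the spread between these pooled libraries. Proteins were translated from GENCODE M21 transcripts (GRCm38) and searched with HMMER 3.4 for KRAB (E at most 0.001) and by pattern for C2H2 and CCCH fingers; exon lengths and coordinates come from the same annotation. The fit was tested on simulated data.

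Members named are the 12 with the smallest p, the 10 with the highest level per kb, the 3 nearest the minimum on each side, the 3 most and 3 least variable in Wild-type, and examples from lists; from each further list comes the gene with the smallest p, with defining members. Other genes were singled out after their values were seen. The members and lists were chosen with earlier results of these data known.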

Additional observations from a re-analysis of the deposited data

How the results depend on the processing

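Over 13 alternative fits, and with minimums of 2 and 10 CPM in the rule, the median log2 fold change of the members kept its sign (−0.05 to −0.01) and no member was called higher in Zeb1 (+/-). The number of members called lower was 3 without the low-count filter and 3 with DESeq2, and 0 to 1 with a library left out; the 1, without Zeb1 (+/-) replicate 3, was Zfp36l2. The number of genes past the threshold among all tested, 76 as reported, was 522 without the low-count filter, 351 with DESeq2, 31 with a term for the structural RNA class, 4 with the B cell marker mean as a covariate, and 5 to 127 with a library left out, lowest without Wild-type replicate 2 (5), Zeb1 (+/-) replicate 2 (11) and Zeb1 (+/-) replicate 1 (28). With the replicate number as a block it was 15, with 0 members called. The titles call the libraries Set 1 to Set 3 within each genotype, and what a set shares is not given. Libraries with the same number did not deviate together (correlations of −0.25, −0.03 and −0.17). With 3 libraries per genotype these values cannot decide whether the numbers pair them. Members whose genotypes did not overlap numbered 48 to 73 with a library left out, where fewer values make separation easier. The log2 fold change of Zfp36l1 was −0.19 with the B cell covariate, against 0.13 as reported; the cause was not tested. Standard errors of the members ran from 0.0613 to 0.199 on the log2 scale. RSEM's division of reads among near-identical KRAB copies cannot be checked from this table.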
